A study of Mus musculus with 6 samples.

Results

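The 33 genes described here are the transcription factor p53, its regulators, its transcriptional targets and the kinases and repair factors that act on damaged DNA. They were taken by name from a list and all 33 were among the 33457 features of the count matrices. The study sequenced RNA of single nuclei from mouse hippocampus in 6 libraries, 1 for each combination of APOE allele, tau transgene and treatment. Each gene was read per class of nuclei and per library, with oligodendrocytes, the myelin-forming glia, and dentate granule neurons, the principal excitatory neurons of the dentate gyrus, as the main classes.

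In a resting cell p53 protein is held low by Mdm2, a ubiquitin ligase, and by its relative Mdm4. DNA breaks activate the kinases Atm and Atr, and Atm acts in part through Chek2. p53 then escapes Mdm2 and turns on genes for cell cycle arrest (Cdkn1a), for feedback (Mdm2, Ccng1), for repair (Xpc, Ddb2, Rrm2b) and for death (Bax, Bbc3, Pmaip1). The p53 protein is regulated mainly after translation, so the mRNA of Trp53 itself is not a readout of its activity, whereas its target mRNAs respond. Cdkn1a, which encodes the cyclin-dependent kinase inhibitor p21, is also controlled by factors other than p53.

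All mice were of strain B6 and 9 months old. FE3 was APOE3 fl/fl and FE4 was APOE4 fl/fl, both untreated and without tau or Cre in their labels. TAFE3_oil and TAFE3_tam carried P301S, a mutant tau that causes neurodegeneration in mice, with floxed APOE3 and the transgene written Aldh1la1CreERT in the labels, and received oil or tamoxifen. TAFE4_oil and TAFE4_tam were the same with floxed APOE4. Tamoxifen activates CreERT, and the Aldh1l1 promoter is an astrocyte promoter. The number of animals in a library was not given in the sources used here. TAFE3_oil and TAFE4_oil differ from FE3 and FE4 in tau, Cre and oil at once, and the effect of tamoxifen cannot be told apart from the deletion it causes.

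With 1 library in each group there was no replicate and no test between groups was possible. Values are counts of unique molecular identifiers (UMIs) summed over the nuclei of a class, and CPM, the same counts scaled by the total of that class to a common library size. Levels are given with 95% Poisson intervals, ratios with 95% exact conditional binomial intervals and shares with 95% exact binomial intervals. All of these cover counting error only and not the spread between animals. A log2 ratio of 1 is 2-fold. A gene was called measured when the pair of libraries together held 20 or more of its UMIs and its level reached 3 CPM in either. Counts under 3 UMIs were set to 3 before a gene was read as past 2-fold.

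The libraries held 39050503 to 49083723 UMIs, and 9369 to 15918 nuclei were used from each, with medians of 2130 to 2608 UMIs. In the order FE3, FE4, TAFE3_oil, TAFE3_tam, TAFE4_oil, TAFE4_tam, oligodendrocyte-like nuclei numbered 597, 1802, 714, 863, 841 and 1639 and dentate granule neuron-like nuclei 2248, 3413, 734, 1101, 614 and 1500. All 12 oligodendrocyte markers were detected in the oligodendrocyte-like nuclei, and all 8 granule neuron markers in the granule neuron-like nuclei, of every library. Subicular or cortical excitatory neuron-like nuclei made up 10.1% and 8.24% of FE3 and FE4 but 19.9% to 38.0% of the TAFE libraries, and dentate granule neuron-like nuclei 23.99% and 21.4% against 4.97% to 12.1%. The parts of tissue taken and of neuron loss in these shares cannot be told apart. The median mitochondrial share of a barcode was 0.625% in FE4 and 0.695% in TAFE4_tam against 2.01% to 3.23% in the other libraries. Any pair of libraries shared at most 0.449% of the barcodes of its smaller library.

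p53 binds a 10-base motif made of 3 purines, a C, an A or T at each of 2 positions, a G and 3 pyrimidines, usually as a pair of such motifs. The motif is its own reverse complement, so a search covers both strands. The mouse promoters of RefSeq (build GRCm38.p6, 250 bases before to 50 after a transcript start) were searched for it, and 25 of the 33 genes had a promoter there. An exact motif was in 10 of those 25 (40.0%), against 9.55% of all 27025 genes, and a pair with at most 2 mismatches outside the C and G and at most 13 bases between was in 5 of them, against 4.71%. The 5 were Cdkn1a, Ccng1, Bax, Gadd45a and Sesn1, and Aen, Mdm2, Trp53, Ei24 and Polk had an exact motif but no such pair. Pmaip1, Trp53inp1, Zmat3, Perp, Xpc, Rrm2b, Tnfrsf10b and Ddb2 were not matched to a promoter. The genes on the list were assembled as p53 targets, so a higher share of motifs describes the list and not these samples. The 250 bases before the start are printed 5′ to 3′ for Cdkn1a, Ccng1 and Gadd45a, 3 genes whose mRNA the results turn on. The pair of motifs with the fewest mismatches is in capitals, and other pairs are not marked. In Cdkn1a the 10 bases directly after the second motif in capitals would also pair with it under this rule. Phlda3, which had no match in this window, is printed beside them in lower case.
Cdkn1a, chr17:29090729-29090978, plus strand, 0 mismatches and 12 bases between the motifs: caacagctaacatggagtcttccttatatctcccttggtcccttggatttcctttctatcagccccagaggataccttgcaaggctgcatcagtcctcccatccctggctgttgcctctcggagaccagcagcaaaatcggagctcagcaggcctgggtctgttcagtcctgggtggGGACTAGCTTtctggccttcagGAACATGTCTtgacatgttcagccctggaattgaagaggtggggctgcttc
Ccng1, chr11:40755287-40755536, minus strand, 1 mismatch and 0 bases between the motifs: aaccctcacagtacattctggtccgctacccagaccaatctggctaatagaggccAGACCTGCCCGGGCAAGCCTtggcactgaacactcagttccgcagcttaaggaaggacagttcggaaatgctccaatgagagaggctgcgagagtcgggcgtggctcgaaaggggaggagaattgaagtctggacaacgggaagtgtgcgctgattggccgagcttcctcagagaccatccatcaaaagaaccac
Gadd45a, chr6:67037408-67037657, minus strand, 2 mismatches and 11 bases between the motifs: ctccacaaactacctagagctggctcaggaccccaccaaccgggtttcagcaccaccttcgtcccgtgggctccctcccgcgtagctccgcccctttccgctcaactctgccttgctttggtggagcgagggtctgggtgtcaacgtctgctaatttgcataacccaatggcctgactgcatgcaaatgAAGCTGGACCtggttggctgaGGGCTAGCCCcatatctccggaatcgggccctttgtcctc
Phlda3, chr1:135765835-135766084, plus strand: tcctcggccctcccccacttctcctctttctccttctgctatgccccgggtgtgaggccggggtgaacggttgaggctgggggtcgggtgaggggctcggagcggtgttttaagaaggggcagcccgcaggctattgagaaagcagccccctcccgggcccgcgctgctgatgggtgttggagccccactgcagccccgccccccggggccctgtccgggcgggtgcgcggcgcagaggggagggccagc
Cdkn1a had another annotated start, whose window (chr17:29093519-29093768 before the start) held no match. A match is a string of letters and not evidence of binding, and no match says only that these letters are not in the window.

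The first question was whether these genes differed between the tau libraries given oil and the libraries without tau. In oligodendrocyte-like nuclei Cdkn1a was the gene with the widest gap. FE3 held 1.71 CPM (1 UMI), FE4 4.29 CPM (7 UMIs), TAFE3_oil 47.7 CPM (37 UMIs), TAFE3_tam 45.9 CPM (41 UMIs), TAFE4_oil 49.7 CPM (49 UMIs) and TAFE4_tam 30.8 CPM (54 UMIs). All 4 tau libraries lay above both libraries without tau, and the Poisson intervals of the 2 sets did not overlap. TAFE4_oil against FE4 gave a log2 ratio of 3.53 (interval 2.38 to 4.92). TAFE3_oil against FE3 gave 4.81 (interval 2.24 to 10.15) from 37 UMIs against 1, and 3.22 with FE3 set to 3 UMIs.

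**Figure D1:**
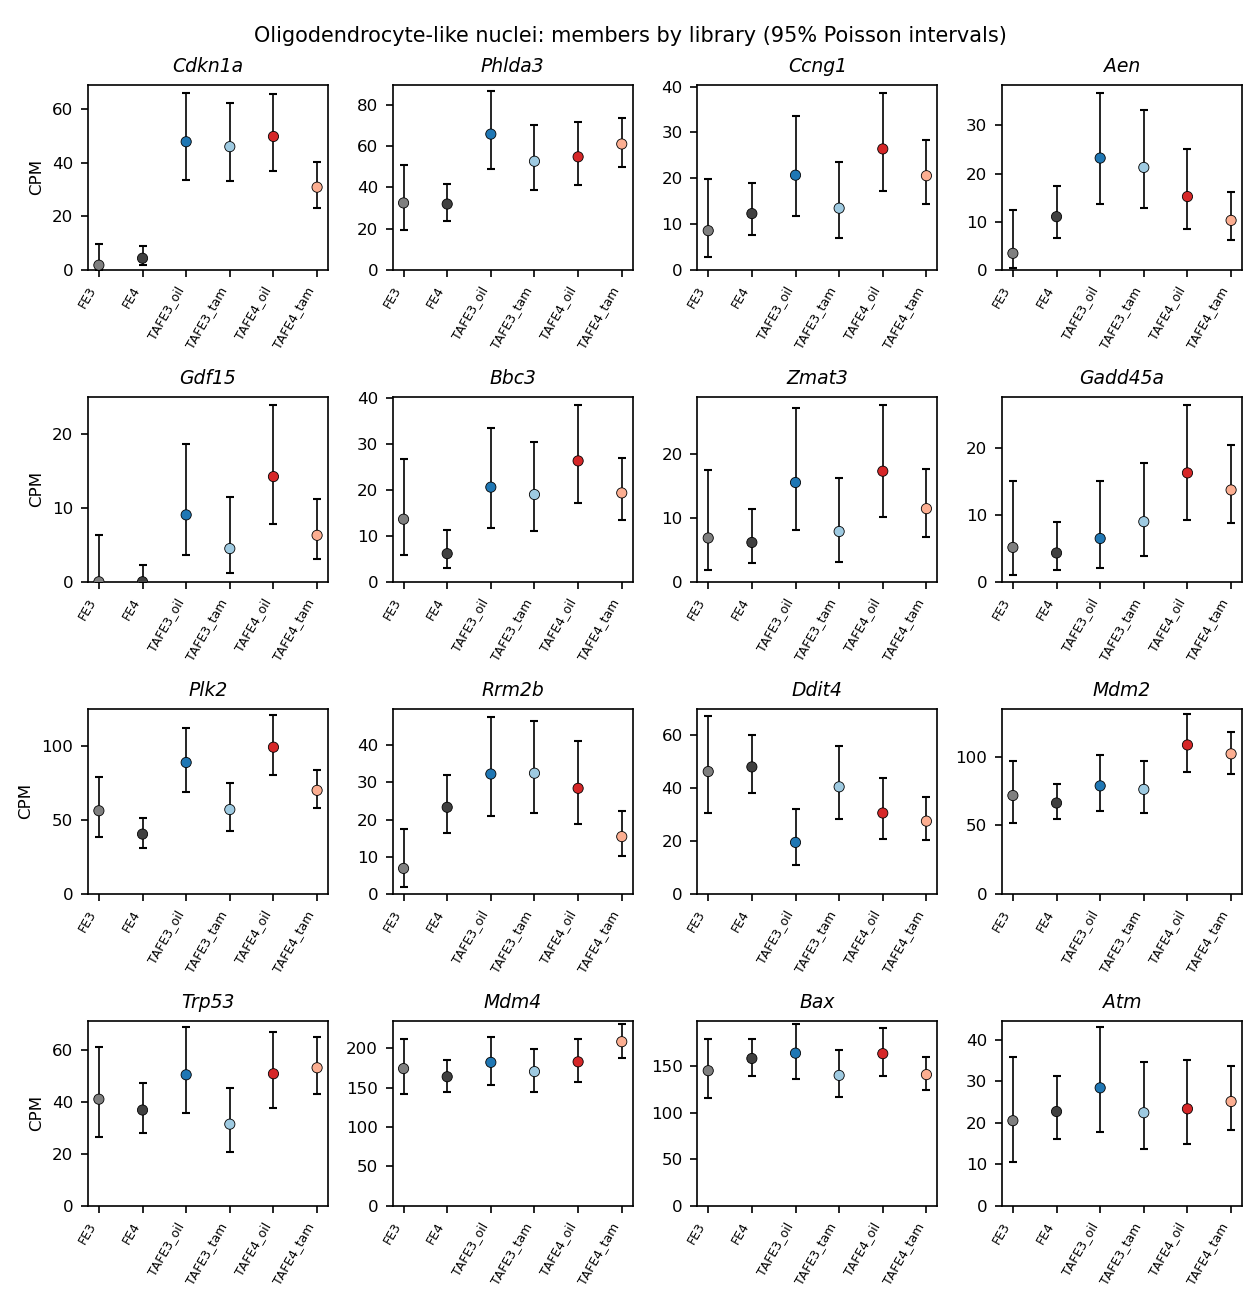
CPM of 16 of the 33 genes in oligodendrocyte-like nuclei, 1 point for each of the 6 libraries with its 95% Poisson interval and each panel on its own axis from 0. Cdkn1a is at 1.71 and 4.29 CPM without tau and at 30.8 to 49.7 CPM in the 4 tau libraries, while Mdm4, Bax and Atm show overlapping intervals in all 6.

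The other arrest and feedback targets had smaller gaps. Phlda3, which encodes a small lipid-binding repressor of Akt, was read at 32.4 CPM (FE3), 31.9 (FE4), 65.8 (TAFE3_oil), 52.6 (TAFE3_tam), 54.8 (TAFE4_oil) and 61.0 CPM (TAFE4_tam). Every tau library was above both libraries without tau, with log2 ratios of 1.02 (0.24 to 1.86) in the APOE3 pair and 0.78 (0.20 to 1.36) in the APOE4 pair. Ccng1, cyclin G1, which feeds back on Mdm2, was at 8.53 and 12.3 CPM without tau and at 20.6, 13.4, 26.4 and 20.5 CPM in TAFE3_oil, TAFE3_tam, TAFE4_oil and TAFE4_tam. Its ratios were 1.27 (-0.24 to 3.08) and 1.11 (0.21 to 2.02), so the interval of the APOE3 pair, from 16 UMIs against 5, took in 0. Gadd45a, a stress sensor that slows the cell cycle and helps repair, was at 5.12 and 4.29 CPM without tau and at 6.45, 8.96, 16.2 and 13.7 CPM with tau. Its APOE4 ratio was 1.92 (0.56 to 3.44), and in the APOE3 pair its 8 UMIs were under the minimum.

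Gdf15, a secreted stress cytokine, was read at 0 UMIs in FE3 and FE4, where 3 UMIs would be 5.12 and 1.84 CPM. The tau libraries held 7, 4, 14 and 11 UMIs (9.03, 4.48, 14.2 and 6.27 CPM in the order TAFE3_oil, TAFE3_tam, TAFE4_oil, TAFE4_tam). With FE3 and FE4 set to 3 UMIs, TAFE3_oil was 1.76-fold and TAFE4_oil 7.72-fold higher, both from fewer than 20 UMIs in all. These folds do not include counting error. Zmat3, a zinc finger RNA-binding protein, stood at 6.82 and 6.13 CPM without tau and 15.5, 7.84, 17.2 and 11.4 CPM with it, with a ratio of 1.49 (0.28 to 2.78) in the APOE4 pair. Plk2, a polo-like kinase that is also induced by neuronal activity, stood at 56.3 and 40.5 CPM without tau and at 89.0, 57.1, 99.4 and 70.1 CPM with it. Its ratios were 0.66 (0.04 to 1.31) and 1.30 (0.83 to 1.77). Both oil libraries were above all others for Plk2.

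Of the mTORC1-restraining targets, Ddit4 went the other way. FE3 and FE4 held 46.1 and 47.8 CPM, the oil libraries 19.4 (TAFE3) and 30.4 (TAFE4), and the tamoxifen libraries 40.3 (TAFE3) and 27.4 CPM (TAFE4), with ratios of -1.25 (-2.27 to -0.29) and -0.65 (-1.31 to -0.03). Sesn1, a sestrin, stayed between 24.6 and 38.7 CPM in all 6 libraries, with both intervals taking in 0.

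The regulators of p53 differed little. Trp53 was read at 40.9 CPM (FE3), 36.8 (FE4), 50.3 (TAFE3_oil), 31.4 (TAFE3_tam), 50.7 (TAFE4_oil) and 53.03 CPM (TAFE4_tam), and both tau intervals took in 0. Mdm4 lay between 164 and 208 CPM, and its tau ratios were 0.06 (-0.31 to 0.45) and 0.16 (-0.12 to 0.44). Mdm2, itself a p53 target, was at 71.7, 66.2, 78.7, 76.1, 109 and 102 CPM in the order FE3, FE4, TAFE3_oil, TAFE3_tam, TAFE4_oil, TAFE4_tam. Only in the APOE4 pair did its interval leave out 0, at 0.71 (0.31 to 1.11), and the difference between the pairs was not tested. Cdkn2a, which encodes the Mdm2 inhibitor ARF and the kinase inhibitor p16, had 1 UMI in TAFE3_tam, 1 in TAFE4_tam and 0 in the other libraries.

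Among the death genes, Aen, an apoptosis-enhancing nuclease, was at 3.41 CPM (2 UMIs) (FE3), 11.03 (FE4), 23.2 (TAFE3_oil), 21.3 (TAFE3_tam), 15.2 (TAFE4_oil) and 10.3 CPM (TAFE4_tam). Its APOE3 ratio was 2.77 (0.70 to 5.92) from 18 UMIs against 2, and the APOE4 ratio of 0.46 (-0.63 to 1.53) took in 0. Bbc3, which encodes PUMA, was at 13.6 and 6.13 CPM without tau and at 20.6, 19.0, 26.4 and 19.4 CPM with it, with ratios of 0.60 (-0.71 to 2.03) and 2.11 (1.01 to 3.32). Bax, the pore-forming effector, lay between 140 and 164 CPM in all libraries and Apaf1, the apoptosome scaffold, between 11.03 and 19.03 CPM. Pmaip1, which encodes NOXA, had no UMI in any library, where 3 UMIs would be 1.71 to 5.12 CPM. Perp, Fas, Eda2r and Tnfrsf10b had at most 9 UMIs in any library.

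Of the sensing and repair genes, Atm was read at 20.5 CPM (FE3), 22.7 (FE4), 28.4 (TAFE3_oil), 22.4 (TAFE3_tam), 23.3 (TAFE4_oil) and 25.1 CPM (TAFE4_tam), and Atr stayed between 65.6 and 87.2 CPM. Parp1, which binds DNA breaks and builds poly(ADP-ribose), was at 23.9, 28.8, 27.1, 28.0, 25.4 and 27.4 CPM in the same order. Its tau ratios were 0.18 (-0.86 to 1.27) and -0.18 (-0.95 to 0.55), and all 6 of its intervals overlapped. Rrm2b, the p53-inducible subunit of ribonucleotide reductase, was the exception at 6.82 CPM in FE3, 23.3 in FE4 and 15.4 to 32.5 in the tau libraries. Its ratio was 2.24 (0.71 to 4.22) in the APOE3 pair, from 25 UMIs against 4, and 0.29 (-0.47 to 1.03) in the APOE4 pair. The lesion-recognition genes Xpc and Ddb2, the translesion polymerase Polk, Chek2, Ei24, a membrane protein of the endoplasmic reticulum, Trp53inp1 and Plk3 had no ratio past 2-fold in either tau pair among those measured. Ei24 alone of these had an interval above 0, at 0.58 (0.07 to 1.08) in the APOE4 pair.

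Counted over the list, 21 of the 33 genes were measured in the APOE3 pair of oligodendrocyte-like nuclei. Of these 5 were at least 2-fold higher with tau (Cdkn1a, Ccng1, Phlda3, Aen and Rrm2b), against 4.13% of all genes measured, and 1 was at least 2-fold lower (Ddit4), against 2.09%. In 5 the interval lay above 0, against 5.18% of all genes. In the APOE4 pair 24 genes were measured and 6 were at least 2-fold higher (Cdkn1a, Bbc3, Ccng1, Zmat3, Gadd45a and Plk2), against 8.67%, while 0 were lower, against 2.19%. There 9 had an interval above 0, against 18.7% of all genes. The median log2 ratio of the measured genes was 0.42 and 0.46 in the 2 pairs, where that of all genes was 0.01 and 0.17. A gene that met the minimum only through its tau library, as Cdkn1a did in the APOE3 pair, had to differ, so these counts describe the list and do not add support.

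**Figure D2:**
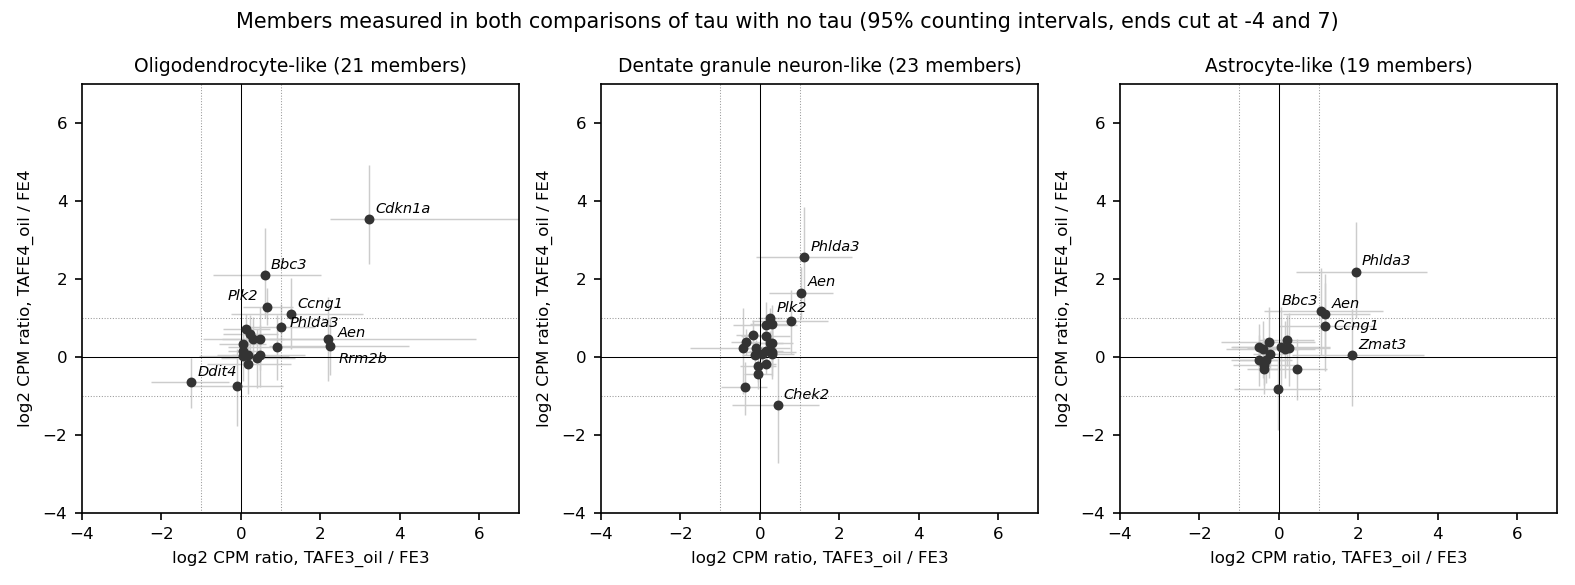
Log2 CPM ratios of TAFE3_oil against FE3 (x axis) and TAFE4_oil against FE4 (y axis) for the genes measured in both pairs, in 3 classes, with 95% counting intervals in grey and dotted lines at 2-fold. Cdkn1a in oligodendrocyte-like nuclei, drawn at 3.22 with FE3 set to 3 UMIs and at 3.53, lies apart, and most other genes lie within 2-fold on both axes.

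Other measures moved with these libraries. The summed level of 13 microglia markers in the oligodendrocyte-like nuclei was 464 and 372 CPM without tau and 1120 to 1459 CPM with tau, and the part of this in the results was not tested. Microglia-like nuclei themselves had 15.5 CPM of Cdkn1a in TAFE3_oil and 18.2 in TAFE4_oil, below the oligodendrocyte-like nuclei of the same libraries. The median ratio of 15 neuronal transcripts in oligodendrocyte-like nuclei was -0.18 in the APOE3 pair and 0.02 in the APOE4 pair. In the APOE4 pair ribosomal protein genes had a median ratio of 0.93 and mitochondrially encoded genes one of 1.19, against -0.02 and -0.62 in the APOE3 pair. TMM factors, an edgeR scaling, moved the median of all genes in the APOE4 pair from 0.17 to -0.05, and Cdkn1a stayed at 3.31 or higher under every alternative that gave a value. In oligodendrocyte-like nuclei these factors were 0.915 in FE4 and 1.07 in TAFE4_oil and lower every APOE4 ratio alike. At that scaling the APOE4 intervals of Phlda3, Ccng1 and Ei24 take in 0, and Ccng1 falls below the fold limit used here. The APOE4 intervals of Cdkn1a, Mdm2, Bbc3, Zmat3, Gadd45a and Plk2 stay above 0.

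In dentate granule neuron-like nuclei the measured genes differed by less. Aen was the gene past 2-fold in both pairs with both intervals above 0. It was read at 6.62 CPM (FE3), 6.13 (FE4), 13.7 (TAFE3_oil), 10.4 (TAFE3_tam), 19.3 (TAFE4_oil) and 11.6 CPM (TAFE4_tam). Every tau library was above both libraries without tau, with ratios of 1.05 (0.23 to 1.84) and 1.66 (0.97 to 2.32). Phlda3 was at 3.01 and 1.38 CPM without tau and at 6.56, 8.57, 8.19 and 4.96 CPM with it, with ratios of 1.12 (-0.10 to 2.32) and 2.57 (1.33 to 3.86). The Phlda3 values rest on 11 to 23 UMIs in each library.

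Cdkn1a in granule neuron-like nuclei was at 0.802 CPM (FE3), 1.13 (FE4), 5.46 (TAFE3_oil), 2.61 (TAFE3_tam), 3.51 (TAFE4_oil) and 3.03 CPM (TAFE4_tam), from 4 to 11 UMIs each. These counts were under the minimum in both pairs, so Cdkn1a is not among the measured genes of this class. Every tau library was above both libraries without tau, but the Poisson intervals of TAFE3_tam, TAFE4_oil and TAFE4_tam overlapped those of FE3 and FE4. Among the regulators, Trp53 was at 39.7, 29.3, 35.5, 33.2, 43.3 and 40.2 CPM, Mdm2 at 46.7, 46.4, 55.7, 48.1, 59.1 and 58.4 CPM, and Mdm4 between 139 and 155 CPM. In the APOE4 pair the intervals lay above 0 for Trp53 at 0.57 (0.17 to 0.95) and Mdm2 at 0.35 (0.02 to 0.67), and in the APOE3 pair both took in 0. Plk2 was at 59.6 and 45.0 CPM without tau and at 71.5 to 89.5 CPM with it, and Ccng1 at 9.83 and 10.6 CPM against 10.9 to 18.7 CPM.

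**Figure D3:**
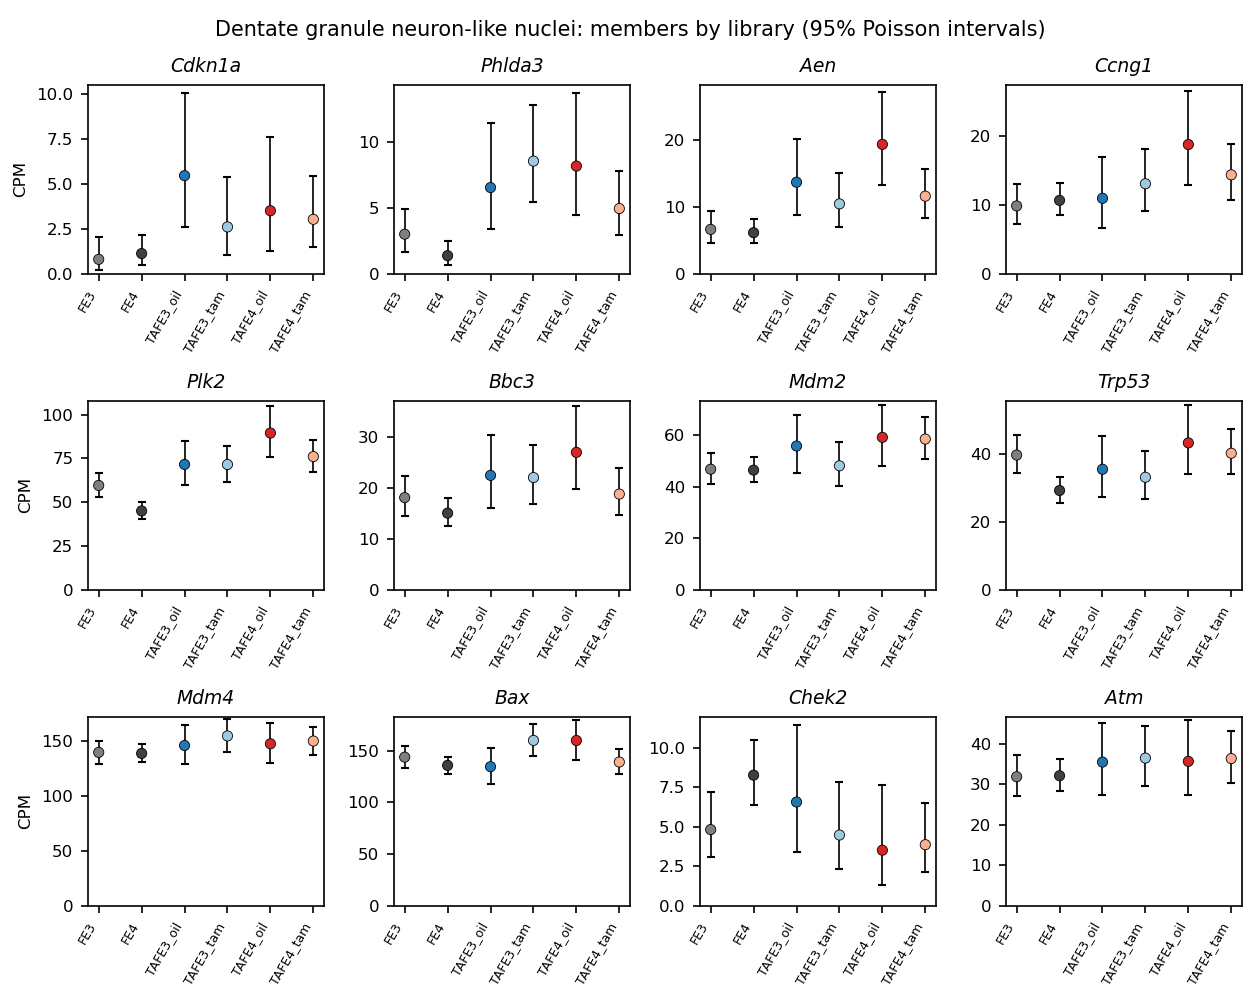
CPM of 12 of the 33 genes in dentate granule neuron-like nuclei, 1 point for each of the 6 libraries with its 95% Poisson interval and each panel on its own axis from 0. Aen is at 6.62 and 6.13 CPM without tau and at 10.4 to 19.3 CPM with tau, and Cdkn1a stays at or below 5.46 CPM in every library.

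Atm in granule neuron-like nuclei was at 31.9, 32.1, 35.5, 36.5, 35.7 and 36.4 CPM and Parp1 at 82.0, 101, 91.2, 77.5, 89.5 and 91.8 CPM in the order FE3, FE4, TAFE3_oil, TAFE3_tam, TAFE4_oil, TAFE4_tam. For both genes the tau intervals took in 0. Chek2, the kinase that acts below Atm, was at 4.81 CPM in FE3, 8.25 in FE4 and 3.51 to 6.56 CPM in the tau libraries. Its APOE4 ratio was -1.23 (-2.73 to -0.03), from 6 UMIs against 66, and its APOE3 ratio was 0.45 (-0.69 to 1.5). Pmaip1 and Eda2r had no UMI in any library, where 3 UMIs would be 0.375 to 1.76 CPM. The rest of the repair and growth genes differed little: Atr, Polk, Xpc, Ddb2, Rrm2b, Ddit4 and Trp53inp1 were within 2-fold with intervals that took in 0 in both pairs. In the APOE4 pair Zmat3 was at 0.92 (0.07 to 1.72), Bbc3 at 0.84 (0.32 to 1.34), Ei24 at 0.39 (0.06 to 0.71) and Bax at 0.24 (0.04 to 0.43), while Sesn1 was at -0.44 (-0.83 to -0.07) and Apaf1 at -0.78 (-1.49 to -0.14). Cdkn2a had at most 2 UMIs in a library, and Fas, Tnfrsf10b, Gdf15, Perp and Plk3 had between 1 and 16.

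Of 24 genes measured in the APOE3 pair of granule neuron-like nuclei 3 were at least 2-fold higher (Phlda3, Aen and Gadd45a), against 1.89% of all genes, and 0 were lower, against 2.46%. The interval was above 0 in 1, against 6.17%. Of 23 measured in the APOE4 pair 2 were higher (Phlda3 and Aen), against 7.9%, and 1 was lower (Chek2), against 1.75%. The interval was above 0 in 10, against 22.8% of all genes. The share higher in the APOE4 pair, 8.7%, was near that of all genes. The medians of the measured genes were 0.16 and 0.24, where those of all genes were -0.05 and 0.155. TMM factors in this class were 0.896 in FE4 and 1.04 in TAFE4_oil and lower every APOE4 ratio alike. At that scaling the APOE4 intervals of Trp53, Mdm2, Zmat3, Ei24 and Bax take in 0, and those of Aen, Phlda3 and Bbc3 stay above 0. Microglia markers summed to 194 and 149 CPM in the granule neuron-like nuclei without tau and to 516 to 633 CPM with tau, and the part of this in the results was not tested.

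Astrocyte-like nuclei were read beside the 2 main classes because the Cre transgene acts in astrocytes. Cdkn1a there was at 0 UMIs in FE3, where 3 UMIs would be 3.89 CPM, and at 0.686 CPM (1 UMI) in FE4. The oil libraries held 29.0 CPM (20 UMIs, TAFE3_oil) and 23.1 CPM (14 UMIs, TAFE4_oil), and the tamoxifen libraries 1.62 CPM (1 UMI, TAFE3_tam) and 4.70 CPM (2 UMIs, TAFE4_tam). Both oil libraries were above the other 4. With FE3 set to 3 UMIs TAFE3_oil was 7.47-fold higher than FE3, a value that does not include counting error. One nucleus held 7 of the 20 UMIs of TAFE3_oil, and 1 held 4 of the 14 of TAFE4_oil. Without them the levels were 19.0 CPM (10.1 to 32.5, 13 UMIs) and 16.6 CPM (7.94 to 30.5, 10 UMIs), and 13 UMIs is under the minimum for a measured gene. Phlda3 had ratios of 1.93 (0.43 to 3.72) and 2.19 (1.01 to 3.46) and Aen of 1.16 (0.11 to 2.30) and 1.10 (0.07 to 2.13). In the APOE3 pair 7 of 23 measured genes were at least 2-fold higher, against 6.2% of all genes, and in the APOE4 pair 3 of 20 (Bbc3, Phlda3 and Aen), against 9.3%. The 7 were Cdkn1a, Bbc3, Ccng1, Phlda3, Zmat3, Aen and Fas, a death receptor. TMM factors in this class were 0.910 in FE4 and 1.08 in TAFE4_oil and lower every APOE4 ratio alike. At that scaling Aen falls below the fold limit in the APOE4 pair and its interval takes in 0, while that of Phlda3 stays above 0. The nucleus with 7 Cdkn1a UMIs also held 5 of Mdm2, 4 of Ccng1, 3 of Phlda3, 2 of Bbc3 and 1 of Fas among its 4206 UMIs. Without it the APOE3 count was 2 of 19, Zmat3 and Aen, with Ccng1 at 0.85 (-0.38 to 2.15) and with Cdkn1a, Bbc3, Phlda3 and Fas under the minimum of 20 UMIs. Without the nucleus with 4 Cdkn1a UMIs in TAFE4_oil the APOE4 count was 2 of 20, Bbc3 and Phlda3. The same step changed no count in oligodendrocyte-like or granule neuron-like nuclei in the tau pairs.

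Endothelial-like nuclei had the highest Cdkn1a level of the 10 classes plotted in every library but TAFE3_tam, and there the level did not separate the tau libraries from the others. It was at 140 CPM (FE3), 46.0 (FE4), 54.0 (TAFE3_oil), 34.0 (TAFE3_tam), 121 (TAFE4_oil) and 152 CPM (TAFE4_tam), from 38 to 124 nuclei each. Microglia-like nuclei had 0 UMIs in FE3, 2.49 CPM (1 UMI) in FE4 and 4.34 to 18.2 CPM with tau. FE3 had 102 such nuclei with 92818 UMIs in all, too few to place it below the tau libraries. Oligodendrocyte precursor-like nuclei had 3.28 and 3.62 CPM without tau and 5.50 to 17.0 CPM with it, from at most 8 UMIs. Subicular or cortical excitatory neuron-like nuclei had 7.97 and 4.95 CPM without tau and 7.50 to 12.9 CPM with it, which overlap. CA1, CA2 or CA3, inhibitory and dentate granule neuron-like nuclei had at most 5.46 CPM in any library. In TAFE3_oil and TAFE4_oil the order was endothelial-like, oligodendrocyte-like and then astrocyte-like, and in TAFE3_oil the intervals of the first and second overlapped. Leaving out the nucleus with the most Cdkn1a UMIs in each class, endothelial-like nuclei of TAFE3_oil were at 42.1 CPM and oligodendrocyte-like nuclei at 43.9 CPM.

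**Figure D4:**
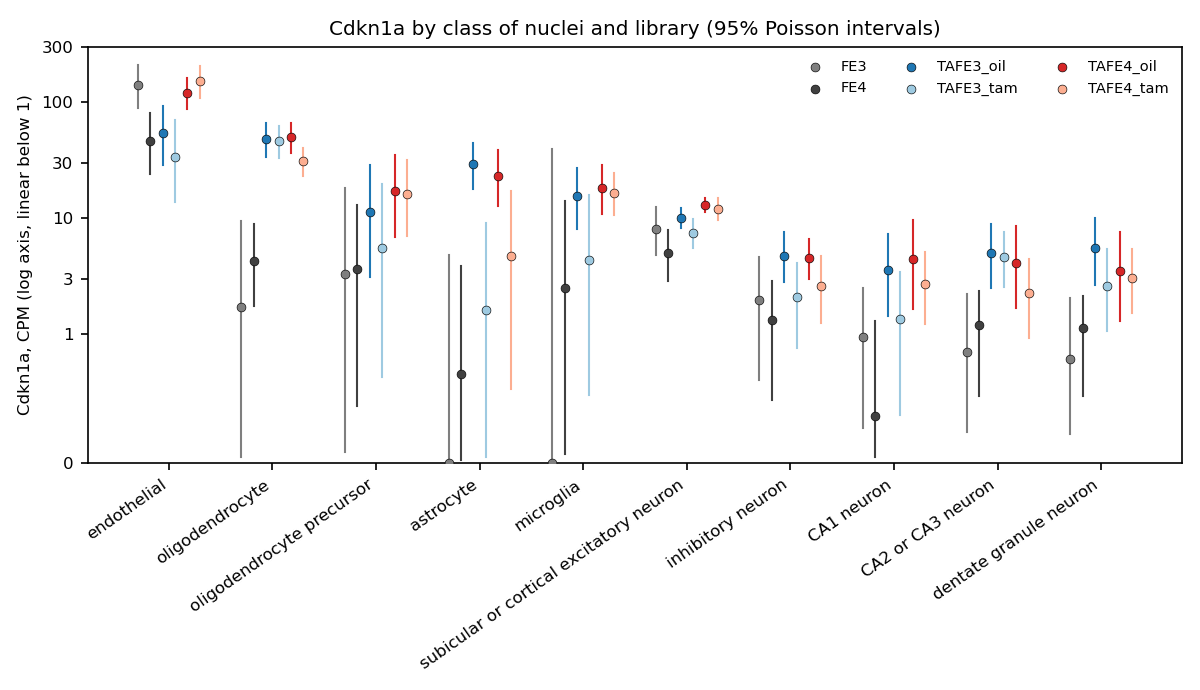
Cdkn1a CPM (log axis, linear below 1) in 10 classes of nuclei, 1 point for each library with its 95% Poisson interval. Endothelial-like nuclei are at 34.0 to 152 CPM in all 6 libraries, oligodendrocyte-like nuclei are at 30.8 to 49.7 CPM in the tau libraries alone, and the hippocampal principal neurons stay at or below 5.46 CPM.

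The next question was whether tamoxifen, given to tau mice with the astrocyte Cre, went with other levels of these genes. The oil libraries enter both this comparison and the one with tau, so a high or low oil library moves both. In oligodendrocyte-like nuclei Cdkn1a differed little with APOE3, at -0.06 (-0.73 to 0.63), and was lower with APOE4, at -0.69 (-1.28 to -0.10). The difference between these 2 ratios was not tested. Plk2 was lower in both pairs, at -0.64 (-1.19 to -0.10) and -0.50 (-0.90 to -0.11). Phlda3 was at -0.32 (-0.93 to 0.28) and 0.16 (-0.33 to 0.66). Ddit4 was higher with APOE3, at 1.06 (0.15 to 2.03), and Rrm2b lower with APOE4, at -0.88 (-1.70 to -0.07).

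In oligodendrocyte-like nuclei 1 of 22 genes was past 2-fold in either direction with APOE3 (Ddit4), against 3.65% of all genes, and 1 of 26 with APOE4 (Gdf15, at -1.18 with an interval of -2.46 to 0.07), against 5.77%. In granule neuron-like nuclei 0 of 23 and 0 of 24 were, against 2.57% and 3.51% of all genes. Aen in granule neuron-like nuclei was at -0.74 (-1.43 to -0.03) with APOE4 and -0.39 (-1.22 to 0.45) with APOE3. In astrocyte-like nuclei 5 of 22 were past 2-fold with APOE3, against 4.88%, and 0 of 17 with APOE4, against 7.45%. The 5 were Cdkn1a, Mdm2, Ccng1 and Zmat3, all lower, and Trp53inp1, which was higher at 1.35 (-0.01 to 2.87). Mdm2 was at -1.18 (-2.15 to -0.29), Ccng1 at -1.36 (-2.84 to -0.06) and Zmat3 at -1.52 (-3.32 to -0.01). Cdkn1a in these nuclei was at -4.16 (-9.54 to -1.52), from 1 UMI against 20, and with APOE4 at -2.30 (-5.48 to -0.17), from 2 UMIs against 14, which is under the minimum. Without the TAFE3_oil nucleus with 7 Cdkn1a UMIs the APOE3 count in astrocyte-like nuclei was 3 of 21 (Ccng1, Zmat3 and Trp53inp1), and Mdm2 was at -0.99 (-1.98 to -0.07) and Ccng1 at -1.04 (-2.57 to 0.32).

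APOE4 against APOE3 gave few gaps. In oligodendrocyte-like nuclei 2 of 20 genes were past 2-fold in either direction without tau (Aen and Rrm2b, both higher in FE4), against 5.89% of all genes. With oil 1 of 25 was (Gadd45a, higher in TAFE4_oil), against 3.59%, and with tamoxifen 2 of 25 were (Aen and Rrm2b, both lower in TAFE4_tam), against 4.95%. Rrm2b was at 1.77 (0.30 to 3.72) without tau and -1.08 (-1.89 to -0.27) with tamoxifen, so its direction was not the same. Aen likewise was at 1.69 (-0.37 to 4.84) and -1.05 (-2.07 to -0.04). In granule neuron-like nuclei 1 of 23 was past 2-fold without tau (Phlda3, at -1.13 with an interval of -2.40 to 0.09), against 2.76%, and 0 of 21 with oil and 0 of 23 with tamoxifen, against 2.5% and 3.05%.

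The share of oligodendrocyte-like nuclei with at least 1 Cdkn1a UMI was 0.168% of 597 nuclei in FE3 (interval 0.0042% to 0.930%) and 0.333% of 1802 in FE4 (0.122% to 0.723%). It was 4.06% in TAFE3_oil (2.74% to 5.78%), 2.67% in TAFE3_tam (1.70% to 3.97%), 4.52% in TAFE4_oil (3.22% to 6.15%) and 2.75% in TAFE4_tam (2.01% to 3.66%). The 4 tau libraries lay above both others, at median depths of 846 to 1056 UMIs. A share follows the level at this depth, so a low level in many nuclei and a higher level in few cannot be told apart from it. In granule neuron-like nuclei the share was 0.178% to 1.36% at deeper medians of 2085 to 2648 UMIs. Thinned to 1000 UMIs a nucleus, with shallower nuclei left out, the oligodendrocyte-like shares were 0.444%, 0.406%, 4.27%, 3.27%, 5.33% and 2.46% of 225, 493, 328, 397, 488 and 731 nuclei in the order FE3, FE4, TAFE3_oil, TAFE3_tam, TAFE4_oil, TAFE4_tam. Their intervals were 0.0113% to 2.45% and 0.0492% to 1.46% without tau, and 2.35% to 7.06%, 1.75% to 5.53%, 3.51% to 7.71% and 1.47% to 3.86% with it, so that of FE3 overlapped all but TAFE4_oil and that of FE4 overlapped none. Thinned to 500 UMIs, which left out no nucleus and was chosen after seeing the data, the shares were 0.168% (0.0042% to 0.930%) and 0.278% (0.0902% to 0.646%) without tau. With tau they were 1.26% (0.578% to 2.38%), 1.62% (0.890% to 2.71%), 2.26% (1.37% to 3.51%) and 1.77% (1.19% to 2.53%), and FE3 and TAFE3_oil, FE3 and TAFE3_tam, and FE4 and TAFE3_oil overlapped. The granule neuron-like shares thinned to 1000 UMIs were at most 0.411%. The part of free RNA in these shares was not tested in either class.

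The 135 oligodendrocyte-like nuclei of the tau libraries with a Cdkn1a UMI were then set against the 3922 without. Nuclei are not replicates, so these values describe the nuclei of 4 libraries. Phlda3 was at 236 CPM in the nuclei with Cdkn1a and 51.9 CPM in those without, a log2 ratio of 2.19 (1.66 to 2.68). Ccng1 was at 103 against 17.2 CPM (2.58, 1.73 to 3.36), Aen at 78.7 against 13.4 CPM (2.55, 1.56 to 3.44) and Gdf15 at 60.5 against 6.13 CPM (3.30, 2.09 to 4.40). Mdm2 was at 206 against 89.8 CPM (1.20, 0.64 to 1.70). Phlda3, Ccng1, Aen, Mdm2, Trp53 and Trp53inp1 were higher in the nuclei with Cdkn1a in 4 of 4 tau libraries, and Gdf15, Gadd45a, Bbc3 and Bax in 3 of 4. Zmat3, Sesn1, Plk2, Apaf1 and Parp1 were also higher in 3 of 4, and none of these had an interval above 0 over the summed libraries.

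Of the 27 other genes on the list with at least 20 UMIs in these nuclei 10 had an interval above 0, against 4.54% of 11817 genes, and 0 had one below. The remaining 5 of the 10 were Gadd45a at 2.19 (0.89 to 3.29), Trp53inp1, a p53-induced regulator of autophagy, at 2.02 (0.49 to 3.27), Bbc3 at 1.27 (0.02 to 2.32), Trp53 at 0.98 (0.12 to 1.74) and Bax at 0.80 (0.32 to 1.26). Mdm4, Atm, Atr, Plk2, Rrm2b and Ddit4 had intervals that took in 0. A further 43 p53 target genes outside the list summed to 1398 CPM in the nuclei with Cdkn1a and 974 CPM in those without. Other lists were higher there too, with immediate early genes at 617 against 456 CPM, cell death effectors at 587 against 456 CPM and genes of damage sensing and double-strand repair at 629 against 497 CPM.

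**Figure D5:**
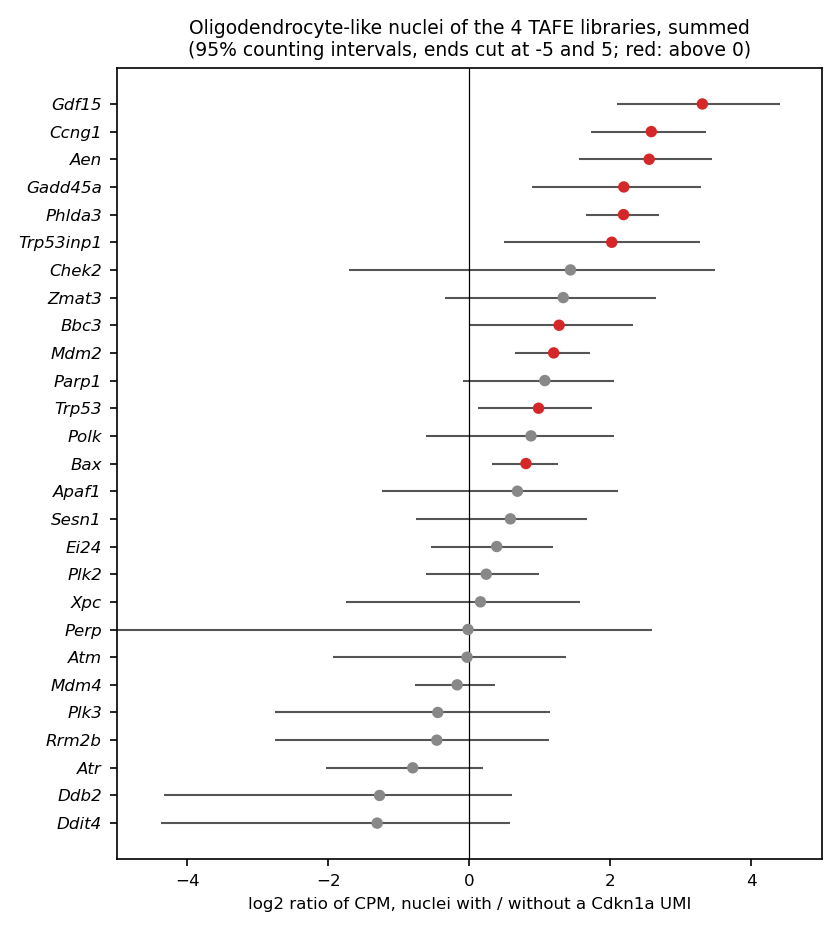
Log2 ratio of CPM between the 135 oligodendrocyte-like nuclei with a Cdkn1a UMI and the 3922 without, summed over the 4 tau libraries, for 27 other genes of the list with 95% counting intervals. The 10 genes in red, from Gdf15 at 3.30 to Bax at 0.80, have intervals above 0, and Mdm4, Atm, Atr and Ddit4 do not.

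The nuclei with Cdkn1a were somewhat deeper, at a median of 1161 against 976 UMIs, and had a median doublet score of 0.0635 against 0.0535. Their median mitochondrial share was 1.53% against 1.55%. The 12 oligodendrocyte markers summed to 11905 CPM in them and 16315 CPM in the rest, 15 neuronal transcripts to 10265 against 11310 CPM, and microglia markers to 1247 against 1346 CPM. The 8 T cell markers were at 0 UMIs in the nuclei with Cdkn1a, and endothelial markers were at 127 against 122 CPM. CA1 neuron markers were higher in the nuclei with Cdkn1a, at 1235 against 803 CPM, as were CA2 or CA3 neuron markers at 72.6 against 45.5 CPM and granule neuron markers at 315 against 249 CPM. The part of RNA of other cells in the split was not tested. C4b, a complement gene of reactive oligodendrocytes, was in 51.1% of the nuclei with Cdkn1a and 54.7% of those without. Split the other way, 3.12% (2.43% to 3.93%) of 2215 nuclei with C4b and 3.58% (2.78% to 4.54%) of 1842 without it had a Cdkn1a UMI.

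Other lists of damage genes, also chosen with results of these data known, are given beside them. In oligodendrocyte-like nuclei 4.13% and 8.67% of all genes were at least 2-fold higher in the APOE3 and APOE4 pairs. Of 43 further p53 targets, 23 and 27 were measured in the APOE3 and APOE4 pairs, of which 1 and 6 were at least 2-fold higher, with medians of 0.01 and 0.22. Genes of damage sensing and double-strand repair had 2 of 15 and 0 of 18 higher, with medians of 0.33 and 0.13. Excision and other repair genes had 2 of 24 and 2 of 33 higher, with medians of 0.16 and 0.12. Of these Parp3, a DNA-dependent poly(ADP-ribose) polymerase, was higher in both pairs, at 3.26 (38 UMIs against 3) and 4.21 (67 against 6). Senescence and cell cycle inhibitor genes had 0 of 5 and 0 of 7 past 2-fold higher, and cell death effectors 0 of 10 and 2 of 13.

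Lists drawn up for other processes are given for scale, though the reactive oligodendrocyte genes share Steap3 with the further p53 targets. Immediate early genes had 2 of 7 and 6 of 13 higher in oligodendrocyte-like nuclei, with Egr1 at 1.18 and 1.20 and Ier5 at 2.14 and 1.20. Reactive oligodendrocyte genes had 7 of 12 and 9 of 13 higher, with medians of 1.39 and 1.73, led by C4b at 3.70 and 3.46. Not all genes of this list were higher. Sgk1, which is also a glucocorticoid-responsive gene, was past 2-fold lower in both pairs. It was at -1.07 (77 UMIs against 122) and -1.76 (106 against 594), with both intervals below 0. In granule neuron-like nuclei the same list had medians of 0.85 and 1.60 and C4b was at 3.38 and 2.99, so RNA of these genes was also read outside glia. There the further p53 targets had 0 of 32 and 5 of 31 higher, against 1.89% and 7.9% of all genes. Ogg1, which removes oxidised guanine from DNA, was past 2-fold lower in granule neuron-like nuclei in both pairs, from few UMIs. It was at -1.29 (-2.82 to -0.04, 6 UMIs against 40) and -1.01 (-2.69 to 0.32, 5 against 47), so the APOE4 interval took in 0. Ier2, an immediate early gene, was at 1.15 (-0.03 to 2.29) and 1.97 (1.06 to 2.87), so its APOE3 interval took in 0.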

How the data were processed

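Deposited files hold UMI counts per gene and barcode, raw and not normalized. Per the file headers the authors used Cell Ranger 3.1.0 for these counts, and mm10 and Seurat are named in the submitters' processing notes. The labels name a 3′ method together with 5′ reagent kits. Barcodes were kept from 500 UMIs and 300 detected genes upward and up to 5% of UMIs from mitochondrial genes. Doublets were removed per library with the scrublet method in scanpy, in TAFE3_oil by taking the expected share with the highest scores. Nuclei were clustered on 2000 variable genes, 30 components and 15 neighbours (Leiden resolution 1, 48 clusters) and named from marker lists, and names carry "-like" because no annotation by the authors was used. CPM were computed from the UMI sums of each class in each library. A gene was measured from 20 UMIs in a pair of libraries and 3 CPM in either of them, and past 2-fold at a log2 ratio of 1 or -1. The ratio code was tested on simulated data. The genes and lists were chosen with earlier results of these data known. The rule for values in all 6 libraries named genes past 2-fold in both tau or both tamoxifen pairs with intervals off 0, and Trp53, Mdm2, Mdm4, Ccng1, Atm and Parp1. Other genes given by library, and the sum of the Cdkn1a split over the 4 tau libraries, were chosen after their values were seen. Promoters came from RefSeq (GRCm38.p6). Alternatives were TMM factors, other UMI and mitochondrial limits, doublets kept, Leiden resolution 0.5, a minimum of 100 UMIs and thinning to 1000 UMIs. Thinning to 500 UMIs and leaving out the nucleus with the most Cdkn1a UMIs were added after seeing the data. Software was Python 3.11.15, numpy 2.4.6, scipy 1.17.1, pandas 2.3.3, scanpy 1.11.5, leidenalg 0.10.2, matplotlib 3.10.9, R 4.3.3 and edgeR 4.0.16.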

Additional observations from a re-analysis of the deposited data

Results flagged for a closer look

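Clusters that no marker list named enter no comparison, and 3 of them held p53 target RNA above the library without tau or above a floor of 3 UMIs. Cluster 14, led by Ms4a4b, Cxcr6, Hspa1a, Hspa1b, Atf3 and haemoglobin genes, had Cdkn1a at 181 CPM (interval 138 to 235, 275 nuclei) in TAFE4_oil and 183 CPM (137 to 239, 376 nuclei) in TAFE4_tam, against 6.57 CPM from 2 UMIs in FE4. Its median depth was 731 UMIs. Cluster 19, whose best marker lists were oligodendrocyte and then subicular or cortical excitatory neuron, had a median of 3494 UMIs and a median doublet score of 0.248, against 930 UMIs and 0.0613 in the oligodendrocyte-like cluster. It had Cdkn1a at 24.9 CPM (15.2 to 38.4, from 20 UMIs) in TAFE4_oil and 0 UMIs in FE4, where 3 UMIs would be 7.11 CPM. Cluster 35, led by genes of liver type such as Cyp7a1 and Mup9, had Gdf15 at 739 CPM (616 to 879) in 31 nuclei of TAFE4_tam, and no library without tau had 20 nuclei of it.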

How the results depend on the processing

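Cdkn1a in oligodendrocyte-like nuclei was higher with tau under every alternative that gave a value. Its ratios were 2.43 to 4.59 in the APOE3 pair and 3.31 to 3.63 in the APOE4 pair. A limit of 1% mitochondrial UMIs left fewer than 50 such nuclei in FE3, and a minimum of 100 UMIs left Cdkn1a unmeasured, so these gave no APOE3 value. Of 9 settings, the main one included, 6 gave a Cdkn1a ratio in the APOE3 pair and 7 in the APOE4 pair. Counts under 3 UMIs were set to 3 in these ratios. A ratio in which the library set to 3 came out higher was left out. Where FE3 held under 3 UMIs the APOE3 value could therefore only lie above 0. The tamoxifen ratios of Cdkn1a were -0.18 to 0.25 and -1.14 to -0.60. Over all settings 1089 single-gene ratios stayed within their main counting interval and 44 did not. Of the ratios kept, 0 that were past 2-fold changed sign, and for libraries under 3 UMIs the same step could hide such a change. The counts of genes at least 2-fold higher moved more. In oligodendrocyte-like nuclei the APOE3 count of 5 became 3 of 12 at 1000 UMIs a nucleus, 0 of 5 with at least 100 UMIs a gene and 1 of 9 after thinning, and the APOE4 count of 6 became 1 of 9 and 1 of 16 under the last 2. In granule neuron-like nuclei the APOE3 count of 3 became 0 of 15 at 1% mitochondrial UMIs and 0 of 17 at 100 UMIs a gene. The APOE4 count of 2 became 4 of 24 with no mitochondrial limit, 0 of 18 at 100 UMIs a gene and 4 of 22 after thinning. Fewer genes were measured in all but the no-limit setting, and the cause was otherwise not tested. No paired analysis was possible because each group had 1 library. Genes with few UMIs could not show a 2-fold gap at this depth, Cdkn2a, Pmaip1 and Tnfrsf10b among them.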
